A study of Homo sapiens with 24 samples.

Results

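Cyclin-dependent kinase (CDK) inhibitor genes were followed through 3 human liver cancer cell lines treated with an inhibitor of DNA methylation, an inhibitor of EZH2, or both. The 8 genes were those whose symbol in the gene table of 63677 genes was CDKN1A, CDKN1B, CDKN1C, CDKN2A, CDKN2B, CDKN2C, CDKN2D or CDKN3. They were matched by name and not by a measured value, and the family was chosen with earlier results of these data known. All 8 passed the filter on low values that left 19377 genes for testing.

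The study treated HepG2, SNU398 and SNU475, established lines labelled as hepatocellular carcinoma and as wild type, and measured total RNA by sequencing after removal of ribosomal RNA. In each line the groups were both drugs in combination, decitabine (5-aza-2'-deoxycytidine, which traps DNA methyltransferases) at 100 nM daily, GSK-126 (which blocks EZH2, the methyltransferase for lysine 27 of histone H3) at 500 nM daily, and the vehicle, phosphate-buffered saline (DPBS). Dosing went on for 3 days, and RNA was taken on day 14 from HepG2 and SNU398 and on day 21 from SNU475, so line and harvest day cannot be told apart in any contrast with SNU475. Each of the 12 groups had 2 libraries, A and B, and no label says whether they were grown as separate cultures, so the spread behind the p-values may be technical.

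CDK inhibitors brake the cell cycle by binding cyclin-CDK complexes or the kinases themselves. The Cip/Kip proteins p21 (CDKN1A), p27 (CDKN1B) and p57 (CDKN1C) bind cyclin-CDK complexes broadly, and p21 is a classical target of p53. The INK4 proteins p16 (CDKN2A), p15 (CDKN2B), p18 (CDKN2C) and p19 (CDKN2D) bind CDK4 and CDK6 and so keep the retinoblastoma protein active, while CDKN3 (KAP) is a phosphatase that removes an activating phosphate from CDK2. In liver cancer the CDKN2A and CDKN2B locus on chromosome arm 9p is known as a target of deletion and of promoter methylation, and in many cell types it is also known as a target of EZH2 and other Polycomb proteins.

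The promoters of the CDKN2A and CDKN2B locus are shown because both genes rose over DPBS in HepG2 with each of the 3 treatments and because both drugs act on marks that promoters can carry. CDKN2A has an inner start, used for the p16 transcript, and an outer start further upstream, used for the ARF transcript. The stretches below are the 250 bases upstream of each start in RefSeq on GRCh38.p14, minus strand, 5′ to 3′, with CpG, the dinucleotide that DNA methyltransferases act on, in capitals.
CDKN2B, chr9:22009306-22009555: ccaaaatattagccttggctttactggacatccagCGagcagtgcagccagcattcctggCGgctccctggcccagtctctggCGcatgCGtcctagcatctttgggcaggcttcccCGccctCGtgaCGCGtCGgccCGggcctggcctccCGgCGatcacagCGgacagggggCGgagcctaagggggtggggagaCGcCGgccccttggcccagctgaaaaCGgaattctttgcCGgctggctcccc
CDKN2A inner start, chr9:21974858-21975107: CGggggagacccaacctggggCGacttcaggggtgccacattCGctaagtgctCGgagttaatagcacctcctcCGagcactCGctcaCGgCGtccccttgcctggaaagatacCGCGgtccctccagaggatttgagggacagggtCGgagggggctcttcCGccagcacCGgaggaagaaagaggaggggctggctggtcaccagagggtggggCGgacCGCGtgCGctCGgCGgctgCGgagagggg
CDKN2A outer start, chr9:21995325-21995574: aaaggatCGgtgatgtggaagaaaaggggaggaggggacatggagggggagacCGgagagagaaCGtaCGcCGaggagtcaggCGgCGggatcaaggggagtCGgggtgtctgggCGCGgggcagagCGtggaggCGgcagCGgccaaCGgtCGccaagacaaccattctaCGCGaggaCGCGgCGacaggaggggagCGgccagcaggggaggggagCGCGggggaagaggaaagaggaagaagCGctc
The CDKN2B stretch held 18 CpG, the inner CDKN2A stretch 20 and the outer one 24, against a median of 11 over 35116 windows of the same length. At least as many CpG were found in 36.8%, 32.4% and 23.7% of those windows, so none of the 3 stood at the extreme. The GC box GGGCGG, searched on both strands, occurred 2 times before CDKN2B, 1 time before the inner CDKN2A start and not in the outer window. It was present in 7 of the 10 windows that matched 7 of the members, and in 42.6% of all windows. No methylation or histone mark was measured in the data used here.

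Levels are given as RPKM (reads normalised to gene length and library depth) after scaling between libraries, and changes as log2 of scaled RPKM plus 0.5, which understates changes of genes near 0. Calls are adjusted p under 0.05 in limma with Benjamini-Hochberg adjustment over the 19377 genes. Library depth was 32600000 to 60370000 reads, and 25476 to 29896 genes were above 0 in a library. All 10 hepatocyte markers on the list, among them ALB, reached 1 RPKM in every HepG2 group. The markers stood apart in 2 libraries of the other lines. In SNU398, decitabine replicate A had 6 of them at 1 RPKM or more, with a sum of 49.8 RPKM, and the other 7 libraries had 0 to 4, with sums of 0.612 to 12.3 RPKM. In SNU475, DPBS replicate A had 7, with a sum of 74.8 RPKM, and the other 7 libraries had 0 to 4, with sums of 2.12 to 17.2 RPKM. Without the SNU398 library, 4 CDK inhibitor genes were called with decitabine there in place of 5 (CDKN2A lost). Without the SNU475 library, 4 were called with the combination there in place of 6 (CDKN2B and CDKN2D lost), and the counts with decitabine and GSK-126 were again 3 and 7. By these defining markers the liver label was borne out in HepG2 and hardly in SNU398 and SNU475, and the mesenchymal genes COL3A1 and VIM were high in both. Of the other fibroblast and stellate cell markers under DPBS, SNU398 had ACTA2 at 2.75, COL1A1 at 0.638, COL1A2 at 0.104 and PDGFRB at 0.0303 RPKM. In SNU475 these were at 48.4, 2.55, 0.193 and 0.664 RPKM. ACTA2 and PDGFRB were higher in HepG2, at 7.68 and 0.65 RPKM, than in SNU398. In bulk RNA, fewer cells with a transcript and less RNA per cell cannot be told apart.

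**Figure D1:**
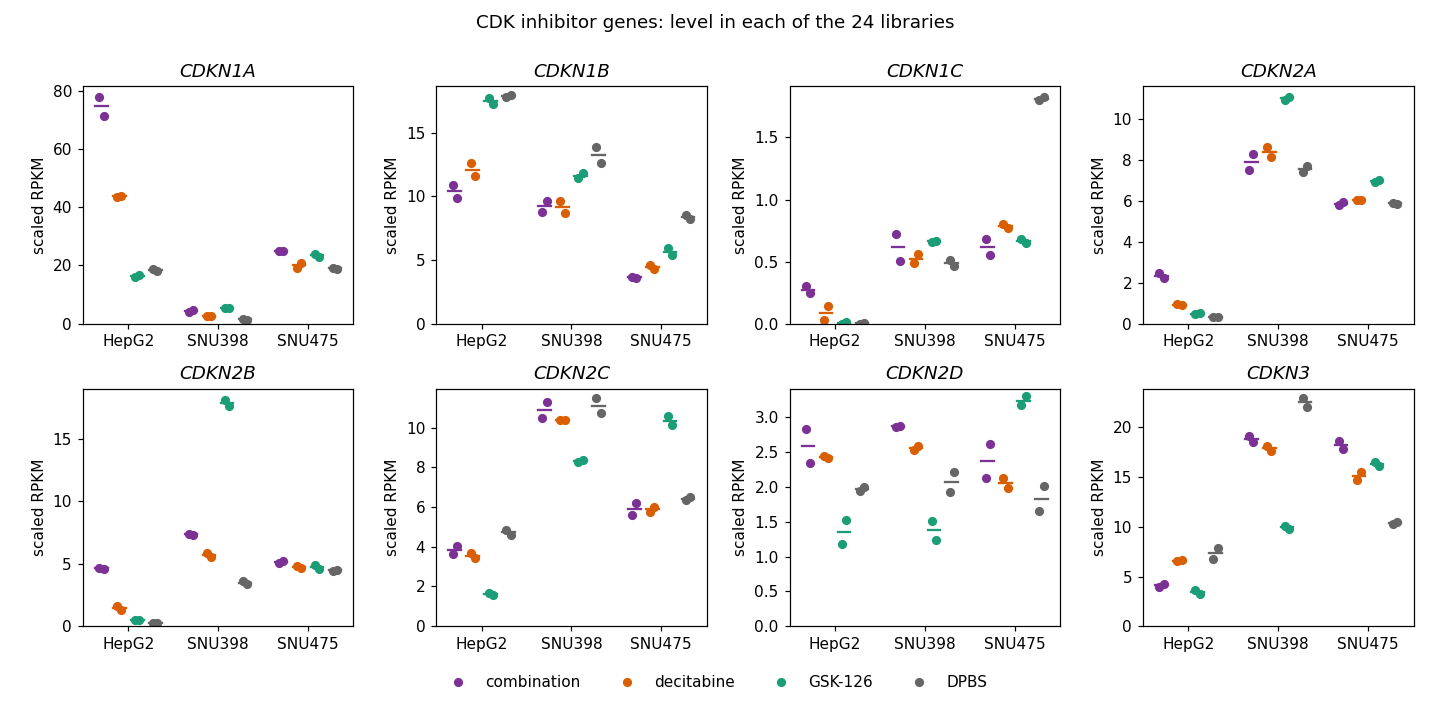
Scaled RPKM of the 8 CDK inhibitor genes (vertical axis, a separate scale in each panel) in the 24 libraries, by line and treatment. Points are libraries and bars are group means of 2. CDKN2B is highest in SNU398 with GSK-126, at 17.84 RPKM, CDKN1A in HepG2 with the combination, at 74.75 RPKM, and CDKN1B is lower than DPBS in most treated groups.

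Under DPBS the lines held different sets of inhibitors. CDKN1A was at 19.3 and 18.9 RPKM in SNU475, 1.47 and 1.41 RPKM in SNU398, and 18.9 and 18.2 RPKM in HepG2. SNU398 thus lay far under both other lines (log2 difference -3.30 from HepG2, adjusted p 4.97e-17), and SNU475 and HepG2 were not called different (0.04). CDKN2A was at 5.90 and 5.87 RPKM in SNU475, 7.42 and 7.73 RPKM in SNU398, and 0.317 and 0.313 RPKM in HepG2. CDKN2B stood at 4.38 and 4.53 RPKM in SNU475, 3.62 and 3.33 RPKM in SNU398, and 0.285 and 0.26 RPKM in HepG2. HepG2 was therefore the line with both 9p genes low, although they were measured there at 46 reads or more in every library. CDKN1C averaged 1.81 ± 0.017 RPKM in SNU475 and 0.489 ± 0.0308 RPKM in SNU398, and HepG2 libraries had 0 and 1 reads of it (SD, n = 2).

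Of the 8 genes, 7 differed between SNU398 and HepG2 under DPBS (5 higher, 2 lower), where 76.6% of all genes were called. SNU475 differed from HepG2 in 6 (5 higher, 1 lower; 79.4% of all genes), and SNU475 differed from SNU398 in 7 (3 higher, 4 lower; 78.1% of all genes). CDKN2D was the gene that was called in none of the 3 contrasts, with DPBS means of 1.83, 2.07 and 1.97 RPKM in SNU475, SNU398 and HepG2. In order of level, CDKN1A and CDKN1B led in HepG2, CDKN3 and CDKN1B in SNU398, and CDKN1A and CDKN3 in SNU475, with CDKN1C lowest in each line. In HepG2 the neighbours CDKN1A and CDKN1B lay within 1 RPKM of each other, with libraries at 18.9 and 18.2 RPKM for CDKN1A and 17.9 and 18.0 RPKM for CDKN1B, and in SNU475 CDKN2D and CDKN1C overlapped.

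The CDK inhibitor genes called against DPBS are given beside the share of all genes called in the same contrast. In HepG2, all 8 genes were called with the combination (5 higher, 3 lower; 66.5% of all genes), 6 with decitabine (3 higher, 3 lower; 54.2%) and 6 with GSK-126 (2 higher, 4 lower; 52.6%). The SNU398 counts were 5 with the combination (3 higher, 2 lower; 47.3% of all genes), 5 with decitabine (3 higher, 2 lower; 38.8%) and 8 with GSK-126 (4 higher, 4 lower; 52.4%). SNU475 had 6 with the combination (4 higher, 2 lower; 54.9% of all genes), 3 with decitabine (1 higher, 2 lower; 51.4%) and 7 with GSK-126 (5 higher, 2 lower; 50%). The genes did not move as a block in any of the 9 contrasts, each of which had calls in both directions. The 3 contrasts of a line share their DPBS libraries.

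**Figure D2:**
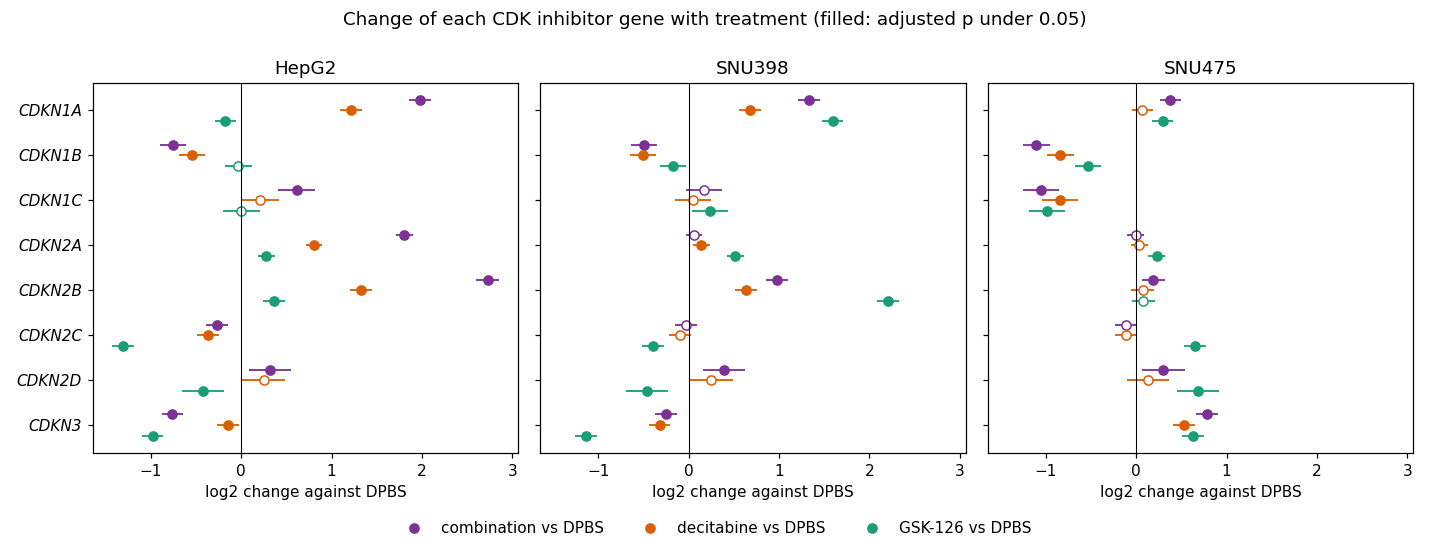
Log2 change of each CDK inhibitor gene against DPBS (horizontal axis) in HepG2, SNU398 and SNU475, with 95% intervals from the model. Filled points have an adjusted p under 0.05. CDKN2B and CDKN1A lie furthest to the right in HepG2 and SNU398, except with GSK-126 in HepG2, where CDKN1A is at -0.17. In SNU475 both are at 0.38 or less. CDKN1B lies left of 0 in all 9 contrasts and is not called with GSK-126 in HepG2, and CDKN3 lies left of 0 in HepG2 and SNU398 and right of it in SNU475.

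CDKN1A, on chromosome 6 (36644305 to 36655116 in hg19, as are all gene positions here; ENSG00000124762), encodes p21, which stops CDK2 complexes after DNA damage. In HepG2 it was at 77.97 and 71.52 RPKM with the combination, 43.5 and 44.0 RPKM with decitabine, 16.1 and 16.7 RPKM with GSK-126, and 18.9 and 18.2 RPKM with DPBS. Both decitabine-containing groups lay far above DPBS, and GSK-126 alone lay slightly under it. The log2 changes were 1.98 (SE 0.06, adjusted p 2.08e-13) with the combination, 1.22 (adjusted p 1.23e-10) with decitabine and -0.17 (adjusted p 0.0142) with GSK-126. The GSK-126 call was lost under 2 of the 16 other settings, with adjusted p up to 0.0991.

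The order of the drugs was another in SNU398. CDKN1A was there at 4.11 and 4.67 RPKM with the combination, 2.72 and 2.49 RPKM with decitabine, 5.38 and 5.31 RPKM with GSK-126, and 1.47 and 1.41 RPKM with DPBS. All 3 treatments lay above DPBS, and GSK-126 lay highest (log2 changes 1.33, 0.68 and 1.59; adjusted p 7.6e-11, 1.84e-07 and 4.3e-12). In decitabine replicate A, the SNU398 library that stood apart in hepatocyte markers, their median was 0.405% of the HepG2 DPBS level. That share of the highest HepG2 CDKN1A group mean comes to 0.3 RPKM, and carry-over between libraries was not tested. Without this library the CDKN1A change with decitabine was 0.63 (adjusted p 7.27e-06). In SNU475 the gene was at 24.87 and 25.04 RPKM with the combination, 19.3 and 20.8 RPKM with decitabine, 23.98 and 22.99 RPKM with GSK-126, and 19.3 and 18.9 RPKM with DPBS. The decitabine libraries there reached down to the DPBS range (0.07, not called), and the other treatments lay above it (0.38 and 0.29). The treated and DPBS levels of SNU398 never reached the lowest level of the other lines.

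CDKN1B (ENSG00000111276, chromosome 12, 12867992 to 12875305) encodes p27, an inhibitor of cyclin E-CDK2 that is removed by the SKP2 ubiquitin ligase. It fell in 8 of 9 contrasts with DPBS and was higher in none. The fall was deepest in SNU475, where it was at 3.63 and 3.62 RPKM with the combination, 4.63 and 4.29 RPKM with decitabine, 5.93 and 5.38 RPKM with GSK-126, and 8.53 and 8.22 RPKM with DPBS. No treated library overlapped DPBS (log2 changes -1.10, -0.84 and -0.53; adjusted p 2.11e-09, 6.02e-08 and 8.61e-06). HepG2 held 10.9 and 9.89 RPKM with the combination, 12.6 and 11.6 RPKM with decitabine, 17.8 and 17.3 RPKM with GSK-126, and 17.9 and 18.0 RPKM with DPBS. Decitabine and the combination lowered it there (-0.55 and -0.76), and GSK-126 was within 0.03 of DPBS and not called. In SNU398 the levels were 8.77 and 9.66 RPKM with the combination, 9.66 and 8.71 RPKM with decitabine, 11.47 and 11.82 RPKM with GSK-126, and 13.9 and 12.6 RPKM with DPBS. The log2 changes there were -0.50, -0.50 and -0.17, and the last was lost under 5 of the 16 other settings.

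CDKN1C (ENSG00000129757, chromosome 11, 2904443 to 2907111), the p57 gene, is imprinted and is silenced on the paternal chromosome with the help of the antisense RNA KCNQ1OT1. It fell in SNU475, the line where it was highest. The levels there were 0.682 and 0.554 RPKM with the combination, 0.805 and 0.769 RPKM with decitabine, 0.683 and 0.647 RPKM with GSK-126, and 1.80 and 1.82 RPKM with DPBS. Treated and DPBS libraries were far apart (log2 changes -1.05, -0.84 and -0.99; adjusted p 1.41e-07, 1.92e-06 and 4.05e-07). In the same SNU475 groups KCNQ1OT1 averaged 0.245, 0.288 and 0.45 RPKM with the combination, decitabine and GSK-126 and 0.981 RPKM with DPBS, so both genes were lower. The hepatocyte markers also differed between these libraries. They summed to 14.6 and 3.63 RPKM with the combination and 4.46 and 2.12 RPKM with decitabine. The sums were 3.93 and 9.03 RPKM with GSK-126, and 74.8 and 17.2 RPKM with DPBS. Of these markers, FGB was at 13.2 to 13.5 RPKM in the DPBS libraries. It averaged 0.319, 0.659 and 0.683 RPKM with the combination, decitabine and GSK-126. Without DPBS replicate A, the library at 74.8 RPKM, the CDKN1C changes were -1.059, -0.853 and -0.997 (adjusted p 4.4e-06, 4.28e-05 and 1.16e-05). HepG2, where these markers were highest, had 0 to 22 reads of CDKN1C in a library. The marker median in the SNU475 DPBS group was 0.306% of the HepG2 DPBS level. That share of the highest HepG2 CDKN1C group mean comes to 0.00083 RPKM. Carry-over between libraries, and its part in the CDKN1C changes of SNU475, was not tested.

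In HepG2 CDKN1C rested on few reads: 22 and 19 with the combination, 3 and 14 with decitabine, 0 and 1 with GSK-126, and 0 and 1 with DPBS. Counts in the combination lay apart from DPBS, and the fitted change of 0.61 (adjusted p 2.77e-05) ran from 0.34 to 5.23 with the pseudocount and the tool, so its size cannot be read. KCNQ1OT1 in HepG2 averaged 1.67 RPKM with the combination, 4.7 RPKM with decitabine, 3.25 RPKM with GSK-126 and 1.55 RPKM with DPBS. SNU398 kept CDKN1C between 0.467 and 0.725 RPKM in all 8 libraries. Its GSK-126 call there (0.23, adjusted p 0.0445) was lost under 13 of the 16 other settings, with adjusted p up to 0.25.

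CDKN2B (ENSG00000147883, chromosome 9, 22002902 to 22009362) encodes p15, the INK4 protein best known as a target of TGF-beta signalling. It had the largest gain of the 8 genes in both HepG2 and SNU398, under different drugs. In HepG2 it was at 4.64 and 4.59 RPKM with the combination, 1.58 and 1.30 RPKM with decitabine, 0.472 and 0.519 RPKM with GSK-126, and 0.285 and 0.26 RPKM with DPBS. The 4 groups did not overlap, and the combination mean was 16.9 times the DPBS mean, decitabine 5.28 times and GSK-126 1.82 times. The log2 changes were 2.73 (SE 0.06, adjusted p 1.22e-14), 1.32 (adjusted p 7.93e-11) and 0.37 (adjusted p 6.16e-05). HepG2 treated with both drugs thus reached the level of SNU475 with DPBS, 4.45 RPKM.

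SNU398 had its highest CDKN2B with GSK-126 alone. The libraries were at 7.37 and 7.30 RPKM with the combination, 5.86 and 5.50 RPKM with decitabine, 18.1 and 17.6 RPKM with GSK-126, and 3.62 and 3.33 RPKM with DPBS. GSK-126 raised the mean 5.13 times over DPBS (log2 change 2.21, SE 0.06, adjusted p 2.44e-13), and the combination 2.11 times (0.98, adjusted p 3.5e-09). The libraries with both drugs lay above decitabine (0.34, adjusted p 6.72e-04) and far under GSK-126 (-1.23, adjusted p 1.72e-10). In SNU475 all 8 libraries lay between 4.38 and 5.24 RPKM, and the combination was the treatment called (0.19, adjusted p 0.0106). That call was lost under 2 of the 16 other settings.

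CDKN2A (ENSG00000147889, chromosome 9, 21967751 to 21995300) yields p16 and, from its outer start, the p53 activator ARF, and the gene value sums both. In HepG2 its pattern was that of CDKN2B, with 2.46 and 2.25 RPKM with the combination, 0.953 and 0.896 RPKM with decitabine, 0.477 and 0.503 RPKM with GSK-126, and 0.317 and 0.313 RPKM with DPBS. Again no groups overlapped, and the means were 7.47, 2.94 and 1.56 times the DPBS mean (log2 changes 1.81, 0.81 and 0.28; adjusted p 3.94e-14, 7.47e-10 and 4.73e-05). SNU398 held 7.55 and 8.28 RPKM with the combination, 8.63 and 8.17 RPKM with decitabine, 10.97 and 11.10 RPKM with GSK-126, and 7.42 and 7.73 RPKM with DPBS. Only the GSK-126 libraries there stood clearly apart (0.52, adjusted p 7.44e-08). The combination overlapped DPBS (0.06, not called), and the decitabine call (0.14, adjusted p 0.0165) was lost under 3 of the 16 other settings. In SNU475 GSK-126 also gave the highest level, 6.91 and 7.02 RPKM against 5.90 and 5.87 RPKM with DPBS (0.23, adjusted p 4.06e-04), with the combination at 5.78 and 5.95 RPKM and decitabine at 6.03 and 6.04 RPKM.

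The antisense gene CDKN2B-AS1 (ANRIL) spans this locus: its span holds all 6461 bases of CDKN2B and shares 524 bases with CDKN2A. The strand setting of the counting is not given in the sources used here, so reads of these genes cannot be told apart in the shared stretches. In HepG2 CDKN2B-AS1 averaged 0.221 RPKM with the combination, 0.12 RPKM with decitabine, 0.0137 RPKM with GSK-126 and 0.0187 RPKM with DPBS (log2 changes 0.48, 0.26 and -0.01, the last not called). It was not called in any contrast of SNU398 or SNU475 with DPBS, where its means were 0.495 to 0.596 RPKM and 0.128 to 0.145 RPKM. In HepG2, the mesenchymal genes that were high in both SNU lines stayed low, with COL3A1 at 0.741 RPKM and VIM at 2.4 RPKM in the combination against 0.109 and 0.18 RPKM in DPBS. Over the list of 6 fibroblast and stellate cell markers the summed level was 24.6 RPKM in the combination, 18.6 in decitabine, 9.37 in GSK-126 and 8.63 in DPBS, most of it ACTA2, and its part in the 9p result was not tested. The 5 immune markers summed to 5.61, 6.32, 0.681 and 1.49 RPKM in the same groups, most of it CD14, whose part was not tested either, and endothelial markers stayed under 1 RPKM.

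CDKN2C (ENSG00000123080, chromosome 1, 51426417 to 51440305) encodes p18, and its changes were largest with GSK-126 alone in each line, lower in HepG2 and SNU398 and higher in SNU475. HepG2 held 3.64 and 4.02 RPKM with the combination, 3.68 and 3.42 RPKM with decitabine, 1.65 and 1.57 RPKM with GSK-126, and 4.87 and 4.57 RPKM with DPBS. The GSK-126 libraries lay far below the rest (log2 change -1.31, SE 0.06, adjusted p 4.17e-11). The other treatments were also lower than DPBS (log2 changes -0.27 with the combination and -0.37 with decitabine; adjusted p 0.00057 and 5.68e-05). The combination lay above GSK-126 (1.04, adjusted p 3.5e-10) and was not called against decitabine. SNU475 held 5.59 and 6.23 RPKM with the combination, 5.77 and 6.03 RPKM with decitabine, 10.6 and 10.1 RPKM with GSK-126, and 6.362 and 6.495 RPKM with DPBS. GSK-126 raised it there (0.65, adjusted p 1.84e-07), and neither other treatment was called. In SNU398 GSK-126 gave 8.26 and 8.38 RPKM against 11.47 and 10.72 RPKM with DPBS (-0.39), with 10.4 to 11.3 RPKM in the 4 libraries of the combination and decitabine.

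CDKN2D (ENSG00000129355, chromosome 19, 10677138 to 10679735), the p19 gene, varied least and went with CDKN2C under GSK-126. In HepG2 it was at 2.83 and 2.35 RPKM with the combination, 2.45 and 2.41 RPKM with decitabine, 1.18 and 1.52 RPKM with GSK-126, and 1.94 and 2.0 RPKM with DPBS. GSK-126 libraries were lowest and did not overlap DPBS (-0.42, adjusted p 0.00371), as was also so in SNU398, with 1.51 and 1.25 RPKM against 1.93 and 2.22 RPKM with DPBS (-0.46, adjusted p 0.00201). In SNU475 GSK-126 was highest instead, with 3.17 and 3.31 RPKM against 1.66 and 2.01 RPKM with DPBS (0.69, adjusted p 7.6e-05). The combination was called higher in HepG2, SNU398 and SNU475 (0.32, 0.39 and 0.30), and these calls were lost under 3, 1 and 3 of the 16 other settings. Decitabine alone was called in no line.

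CDKN3 (ENSG00000100526, chromosome 14, 54863567 to 54886936), whose transcript is known to peak in dividing cells, was called in all 9 contrasts. In HepG2 it was at 3.97 and 4.23 RPKM with the combination, 6.51 and 6.62 RPKM with decitabine, 3.63 and 3.28 RPKM with GSK-126, and 6.79 and 7.85 RPKM with DPBS. The groups with GSK-126 lay well below DPBS (-0.76 and -0.98), and the decitabine call (-0.14, adjusted p 0.0391) was lost under 6 of the 16 other settings. SNU398 held 19.2 and 18.6 RPKM with the combination, 18.1 and 17.7 RPKM with decitabine, 10.0 and 9.83 RPKM with GSK-126, and 22.9 and 22.1 RPKM with DPBS. GSK-126 alone gave the deepest fall (-1.14, adjusted p 1.8e-10), against -0.25 with the combination and -0.32 with decitabine. SNU475 went the other way, with 18.6 and 17.8 RPKM with the combination, 14.8 and 15.5 RPKM with decitabine, 16.6 and 16.1 RPKM with GSK-126, and 10.3 and 10.5 RPKM with DPBS. All 3 treated groups lay above DPBS there (0.78, 0.53 and 0.63; adjusted p 1.2e-08, 1.26e-06 and 2.02e-07).

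What the second drug added was read from the combination against each drug alone. Against decitabine, 6 of the 8 genes were called in HepG2 (4 higher, 2 lower; 55.8% of all genes), 2 in SNU398 (2 higher, 0 lower; 20.5% of all genes) and 3 in SNU475 (2 higher, 1 lower; 18.3%). The 2 in SNU398 were CDKN1A (0.65) and CDKN2B (0.34). The 4 that were higher in HepG2 were CDKN1A (0.76), CDKN1C (0.40), CDKN2A (1.0) and CDKN2B (1.40). Against GSK-126, 8 were called in HepG2 (7 higher, 1 lower; 65.7% of all genes), 7 in SNU398 (3 higher, 4 lower; 50.1%) and 5 in SNU475 (1 higher, 4 lower; 35.9%). CDKN1B was the exception in HepG2 (-0.73). In SNU475 the count was lower without GSK-126 library B or without combination library A. The call of CDKN3 there (0.15) was the one lost most often, kept under 6 of the 16 other settings.

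The series title names synergy, for which the interaction (in log2, combination plus DPBS minus both single drugs) is 0 where the single effects multiply. In HepG2, 7 of the 8 genes had a positive interaction and none a negative one (53% of all genes called, 25.1% higher and 27.9% lower). SNU398 had 6 called (3 higher, 3 lower; 41.3% of all genes) and SNU475 6 (2 higher, 4 lower; 36.4% of all genes). CDKN2B in HepG2 averaged 4.61 RPKM with the combination, where multiplied effects would give 2.62 RPKM and summed gains 1.66 RPKM (interaction 1.04, SE 0.08, adjusted p 5.01e-08). The opposite held in SNU398, with 7.33 RPKM observed against 29.1 RPKM for the product and 20 RPKM for the sum (-1.86, adjusted p 1.89e-10). CDKN1A gave 74.8 RPKM against 38.6 and 41.6 RPKM in HepG2 (0.94) and 4.39 RPKM against 9.7 and 6.52 RPKM in SNU398 (-0.94). In SNU475 the CDKN1A and CDKN2B levels were near both, and neither interaction was called (0.02 and 0.04).

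**Figure D3:**
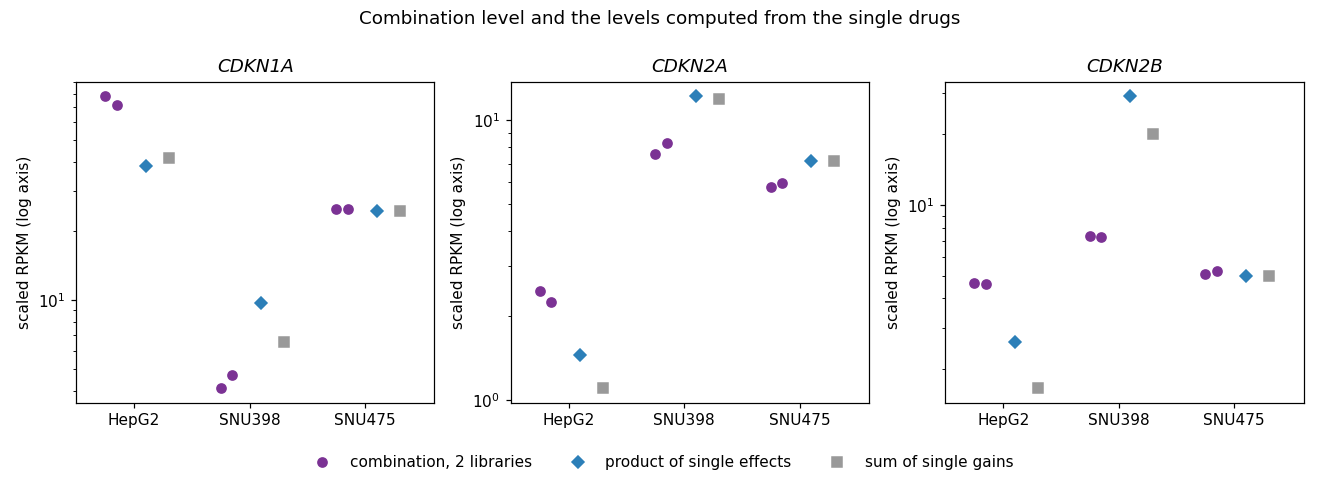
Combination libraries (circles) of CDKN1A, CDKN2A and CDKN2B beside the level given by multiplying the single-drug effects (diamonds) and by summing the single-drug gains (squares), in scaled RPKM on a log axis. The observed levels lie above both in HepG2 and below both in SNU398. For CDKN1A and CDKN2B in SNU475 they lie close to both.

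CDKN2A had interactions of 0.72 in HepG2 (2.35 RPKM, against 1.44 RPKM for the product), -0.60 in SNU398 (7.92 RPKM, against 12.2 RPKM) and -0.27 in SNU475 (5.86 RPKM, against 7.15 RPKM). In HepG2 and SNU398 the positive interactions of CDKN2C and CDKN3 came with falls under GSK-126 alone that were smaller in the combination. For CDKN2C in HepG2 the combination was at 3.83 RPKM where the product was 1.21 RPKM (1.40, adjusted p 1.52e-09). For CDKN3 in SNU398 it was at 18.9 RPKM where the product was 7.9 RPKM (1.22, adjusted p 1.16e-08). A positive interaction therefore marks a higher combination level than multiplied effects give on the fitted scale, and not always a gain over DPBS. CDKN1C in HepG2 (0.40) rested on the few reads given above.

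The effects were then compared between lines. Of 72 such differences over the 8 genes, 53 were called. Between SNU398 and HepG2 the decitabine effect differed in 4 genes (44% of all genes), the GSK-126 effect in 4 (52.3%) and the combination effect in 7 (58.1%), and the last count was 4 without SNU398 combination library B. The GSK-126 count of 4 includes CDKN2A, whose difference ran down to -0.087 over other settings. Its GSK-126 mean was 1.56 times DPBS in HepG2 and 1.46 times in SNU398. Between SNU475 and HepG2 the counts were 7 for decitabine (57.9% of all genes), 7 for GSK-126 (56.5%) and 6 for the combination (64.6%). SNU475 and SNU398 differed in 5 for decitabine (49.8% of all genes), 8 for GSK-126 (56%) and 5 for the combination (56.5%). GSK-126 was thus the drug whose effect on every CDK inhibitor gene differed between SNU475 and SNU398. CDKN1B was the gene with the smallest spread of effects: its differences ran from -0.61 to 0.26, and it was lower or not called in each line.

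Other genes of the pathway were read as lists. Of 20 S-phase and mitosis genes, 0 rose and 19 fell with the combination in HepG2 (median -0.76, against 0.08 over all genes), 2 rose and 15 fell with decitabine (-0.47, against 0.07), and 0 rose and 20 fell with GSK-126 (-1.42, against 0.03). In SNU398 the same list had 2 rising and 14 falling with the combination (-0.22, against 0.04 over all genes), 1 and 17 with decitabine (-0.16, against 0.02), and 0 and 18 with GSK-126 (-0.68, against 0.02). In SNU475 it had 19 rising with the combination (0.61, against -0.01 over all genes), 19 with decitabine (0.56, against -0.01) and 20 with GSK-126 (0.54, against -0.02), and none falling. The list and CDKN3 thus had the same direction in each line. CDKN2B and CDKN1A were higher in HepG2 and SNU398 contrasts in which this list was mostly lower, with the exception of CDKN1A under GSK-126 in HepG2.

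**Figure D4:**
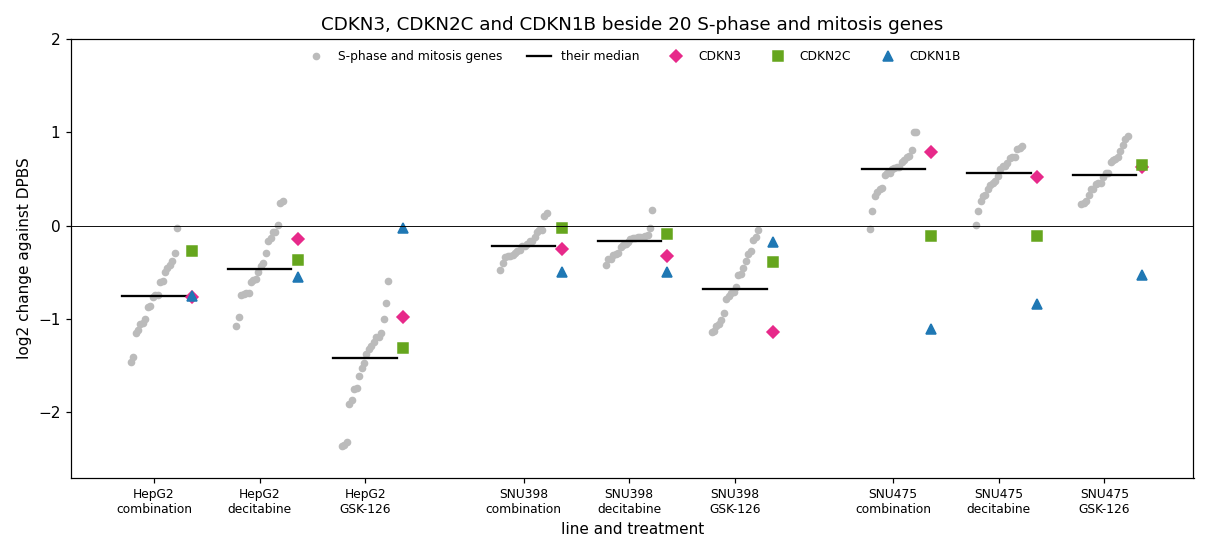
Log2 change against DPBS (vertical axis) of 20 S-phase and mitosis genes (grey points, with their median as a bar) beside CDKN3, CDKN2C and CDKN1B in the 9 contrasts. The list is mostly below 0 in HepG2 and SNU398 and mostly above 0 in SNU475, CDKN3 lies on the same side, and CDKN1B is below 0 in all 9.

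Cyclins, their kinases and the RB and E2F family were counted next. Of 12 cyclin and CDK genes, 3 rose and 9 fell with the combination in HepG2, 2 and 7 with decitabine, and 1 and 9 with GSK-126. CCNA2, the S-phase cyclin, was at -1.22 with the combination and -1.91 with GSK-126, and CDK1, the mitotic kinase, was at -1.52, -0.82 and -1.81. CCND2, a D-type cyclin that the INK4 proteins counter, rose by 2.74 with the combination and by 2.38 with decitabine. SNU398 had 2 rising and 6 falling with the combination, 1 and 8 with decitabine and 2 and 10 with GSK-126, and CCND1 rose in each (0.72, 0.78 and 0.99). In SNU475 8 rose with each treatment, with 1, 1 and 0 falling, led by CCND1, whose log2 changes were 2.01 with both drugs, 1.75 with decitabine and 2.06 with GSK-126. Among 13 genes of the RB and E2F family, 1, 2 and 4 rose and 10, 9 and 9 fell in HepG2 with the combination, decitabine and GSK-126. The counts in SNU398 were 0, 2 and 2 rising and 6, 6 and 8 falling, and in SNU475 7, 6 and 6 rising and 4, 4 and 3 falling. E2F1, a driver of S-phase genes, was at -1.63 with GSK-126 in HepG2 and at 0.75 with it in SNU475.

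Of 8 subunits of ubiquitin ligases that degrade CDK inhibitors, 0, 1 and 2 rose and 5, 5 and 6 fell in HepG2 with the combination, decitabine and GSK-126. SKP2, which targets p27, was at -1.74, -0.91 and -0.94 there, in the groups where CDKN1B changed by -0.76, -0.55 and -0.03. In SNU398 none rose and 5, 6 and 7 fell, with SKP2 at -0.37, -0.21 and -1.11. In SNU475 4, 3 and 3 rose and 1, 0 and 1 fell, led by CDC20 (1.23, 1.08 and 1.11) and by CKS1B, the SKP2 cofactor (0.91, 0.95 and 0.80). CDKN1B RNA fell in SNU475, where CKS1B rose, and in HepG2 and SNU398, where SKP2 fell, except with GSK-126 in HepG2.

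Of 23 genes made of p53 and its targets other than CDKN1A, 16 rose and 4 fell with the combination in HepG2 (median 0.65), 17 and 2 with decitabine (0.38), and 8 and 10 with GSK-126 (-0.09), which by median is the order of CDKN1A itself. Over all genes the HepG2 medians were 0.08, 0.07 and 0.03. PLK3, a stress kinase, rose by 1.53 with the combination and 0.95 with decitabine, and PHLDA3, an AKT repressor, by 1.21 and 0.76. CCNG1, whose change with the combination was larger than that of PHLDA3, fell there (-1.41). In SNU398 the counts were 8 and 6 with the combination, 8 and 4 with decitabine, and 12 and 5 with GSK-126 (medians -0.02, 0.00 and 0.17). The leading genes under GSK-126 there were SESN2 (3.06), the death receptor gene TNFRSF10B (2.05) and GADD45A (2.04), which are also known as stress-response genes. SNU475 had 6 and 9, 9 and 8, and 5 and 4 (medians 0.02, 0.05 and 0.04).

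Of 14 Polycomb and H3K27 enzyme genes, the H3K27 demethylase gene KDM6B moved most in each of the 9 contrasts. It rose in HepG2 by 1.28 with both drugs, 1.19 with decitabine and 1.47 with GSK-126, and by 0.34, 0.49 and 1.06 in SNU398, and it fell in SNU475 (-0.87, -0.78 and -0.75). The list had 6, 6 and 6 rising and 5, 4 and 5 falling in HepG2, 8, 3 and 8 rising and 4, 3 and 4 falling in SNU398, and 3, 3 and 4 rising and 8, 6 and 5 falling in SNU475, each with the combination, decitabine and GSK-126. Of 13 transcription regulators of CDK inhibitors, 7, 5 and 7 rose and 6, 3 and 0 fell in HepG2, 8, 7 and 9 rose and 1, 1 and 0 fell in SNU398, and 4, 2 and 5 rose and 7, 8 and 5 fell in SNU475. KLF6, an activator of CDKN1A, rose in HepG2 by 1.30 with the combination and by 0.55 with decitabine. It also rose by 0.74 with GSK-126, where CDKN1A was lower than with DPBS. The TGF-beta receptor gene TGFBR2 rose in SNU398 by 0.87 with the combination and 0.45 with decitabine. MYC had the largest change with GSK-126 in HepG2 (1.06). It rose in SNU475 with the combination (0.70) and GSK-126 (0.46) and fell in SNU398 with decitabine (-0.45). SMAD4 fell in SNU475 (-0.64, -0.62 and -0.49) and rose with GSK-126 in SNU398 (0.54). TGFB1 fell with decitabine in SNU475 (-0.79).

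Near the 9p genes, 4 of 6 listed neighbours were tested. MTAP, which lies beside CDKN2A and is often deleted with it, was measured in each line and fell in 8 of the 9 contrasts, with log2 changes of -0.47 with the combination in HepG2 and -0.54 with it in SNU475. DMRTA1 rose by 0.50 with the combination in HepG2 and 0.75 with GSK-126 in SNU398, the groups with the highest CDKN2B of their lines. In SNU475 DMRTA1 was lower with the combination, decitabine and GSK-126 (-0.43, -0.38 and -0.19). The combination was the group with the highest CDKN2B of that line. The list had 2, 2 and 1 rising and 1, 1 and 0 falling in HepG2, 1, 0 and 1 rising and 1 falling in each contrast in SNU398, and none rising and 3, 2 and 2 falling in SNU475. Around CDKN1C, 10 of 13 listed 11p neighbours were tested, and 8, 7 and 4 rose in HepG2 with 1 falling in each. In SNU398 3, 1 and 2 rose and 2, 1 and 3 fell, and in SNU475 4, 5 and 3 rose and 4, 2 and 3 fell. Of 11 tested senescence-associated genes, 5, 5 and 3 rose and 3, 2 and 3 fell in HepG2, 5, 4 and 4 rose and 2 fell in each contrast in SNU398, and 7, 8 and 5 rose and 3, 3 and 4 fell in SNU475. LMNB1, a lamin gene known to be low in senescence, was at -1.01 with GSK-126 in HepG2 and -0.95 with GSK-126 in SNU398.

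The genes most like each inhibitor were taken by Pearson's r over the 12 group means after subtracting the mean of each line, among 2923 genes (2924 for CDKN1C). The points share libraries and DPBS groups, so r is a description. CDKN2B was closest to SH3BP5L (0.972), DUSP5 (0.967) and NR1H2 (0.961), and CDKN1A to CTSD (0.962), DUSP5 (0.953) and SH3BP5L (0.953), so these inhibitors shared neighbours. DUSP5 is a phosphatase of ERK and NR1H2 a sterol receptor. CDKN2A was nearest to PLA2G16 (0.963), PPP1R18 (0.957) and NR1H2 (0.955). CDKN3 had the closest match of the 7 matched genes, with CENPA (0.993), the centromeric histone, followed by DLGAP5 (0.968) and CDCA2 (0.965), both mitotic genes. CDKN2C followed RECQL4 (0.873), ASF1B (0.871) and PRADC1 (0.859), CDKN1B followed DPY19L4 (0.933), TSPAN7 (0.905) and GPR126 (0.896), and CDKN1C followed TNFRSF9 (0.956), RND1 (0.953) and PRR15 (0.946). CDKN2D spanned 0.91 in log2 and, being under 1, was not matched.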

How the data were processed

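Total RNA of 24 libraries was sequenced in single reads of 75 bases after ribosomal RNA depletion, per the labels' protocols. Per the submitters' processing notes, the authors used HISAT2, featureCounts and the build hg19. The sources used here give no versions, annotation, strand setting or treatment of repeated alignments. The deposited values are RPKM per gene, and read numbers were recovered from their steps within 0.15 reads.

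RPKM was scaled by median-of-ratios factors (0.847 to 1.158) over the 8211 genes at 1 RPKM or more in every library. Genes at 0.5 RPKM or more in at least 2 libraries were tested. One limma 3.58.1 model (R 4.3.3; trend and robust empirical Bayes) of log2 (scaled RPKM + 0.5) was fitted to all 24 libraries with 12 residual degrees of freedom, and p-values were two-sided with Benjamini-Hochberg adjustment. A gene at 0 in other lines lends a smaller pooled spread, so each line was also fitted alone. Scripts were tested on simulated data.

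The members and gene lists were chosen with earlier results of these data known. Named genes were all members, up to 3 list genes with the largest called changes, and the 3 genes most correlated with a member that spans at least 1 in log2. Figures and tables used Python 3.11.15. The A-minus-B differences of a group were correlated with those of each other group. Over 66 pairs of groups r ran from -0.569 to 0.587 and was above 0.1 in 27, so letters were not treated as pairs. Replicates were not duplicates of each other.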

Additional observations from a re-analysis of the deposited data

Results flagged for a closer look

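Of the 72 differences between lines in the effect of a treatment, 23 were called and at least 2-fold, and each was tested as a difference of log2 changes in limma. The first 4 set SNU398 against HepG2. Of all 19377 genes, 579 were called and at least 2-fold higher there with GSK-126 and 342 lower. The counts were 539 and 909 with the combination, and 224 and 468 with decitabine. With GSK-126 the effect was higher in SNU398 by 1.77 for CDKN1A (adjusted p 1.14e-10) and 1.84 for CDKN2B (adjusted p 1.24e-10). With the combination it was lower in SNU398, at -1.75 for CDKN2A and -1.75 for CDKN2B. Both changes had the same sign in the 2 lines for CDKN2B, so the difference is one of size and not of direction.

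SNU475 was set against HepG2 in 11 of them, with harvest on day 21 and day 14. Of all 19377 genes, 446 were called and at least 2-fold higher there with decitabine and 1068 lower. The counts were 799 and 651 with GSK-126, and 818 and 1820 with the combination. The decitabine effect was lower in SNU475 for CDKN1A (-1.15), CDKN1C (-1.06) and CDKN2B (-1.25). The GSK-126 effect was higher for CDKN2C (1.95), CDKN2D (1.11) and CDKN3 (1.61), genes that rose with it in SNU475 and fell with it in HepG2. The combination effect was lower for CDKN1A (-1.60), CDKN1C (-1.66), CDKN2A (-1.81) and CDKN2B (-2.54, adjusted p 1.78e-12) and higher for CDKN3 (1.55).

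SNU475 was set against SNU398 in the other 8. Of all 19377 genes, 618 were called and at least 2-fold higher there with GSK-126 and 830 lower. The counts were 456 and 866 with the combination, and 264 and 463 with decitabine. The GSK-126 effect was lower in SNU475 for CDKN1A (-1.30), CDKN1C (-1.22) and CDKN2B (-2.13, adjusted p 1.54e-11) and higher for CDKN2C (1.04), CDKN2D (1.14) and CDKN3 (1.77). With the combination it was lower for CDKN1C (-1.22) and higher for CDKN3 (1.03). CDKN1C differences that involve HepG2 rest on its few reads there.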

How the results depend on the processing

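Depth limited CDKN1C in HepG2, where log2 changes ran from 0.07 to 3.32 with decitabine and from 0.34 to 5.23 with the combination over the settings tried. Over 240 values (8 genes in 30 contrasts), direction and call were the same in 235 with a pseudocount of 0.1, 238 with 1, 233 without the filter on low values, 230 without scaling, 231 after quantile normalization, 230 with voom on recovered reads and 236 with the compared lines alone. With the replicate letter as a replicate block 238 were the same, and the lost calls were CDKN1C under GSK-126 in SNU398 (0.23, adjusted p 0.0516) and CDKN3 in the combination against GSK-126 in SNU475 (0.15, adjusted p 0.0502). Of the called values, CDKN2A in the GSK-126 effect of SNU398 minus HepG2 was the one that reversed, at -0.087 with voom against 0.23. It was then not called (adjusted p 0.776). The CDKN2A mean with GSK-126 was 1.56 times DPBS in HepG2 and 1.46 times in SNU398. The cause of the reversal was not tested. Leaving out 1 library in turn kept 2607 of 2688 values, with 69 calls lost and 12 gained. Members called then ran between 4 and 7 for the combination effect of SNU398 minus HepG2, against 7 with all libraries. For the combination against GSK-126 in SNU475 they ran between 3 and 5, against 5 with all libraries. Against no scaling, the scaling moved the median of all genes by -0.21 for SNU398 against HepG2 with DPBS. It moved it by -0.11 for SNU475 against HepG2 with DPBS, and by under 0.1 in the other contrasts. With 2 libraries in each group, a lone library left in a group was assumed to vary like the others.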
